A study of Mus musculus with 6 samples.

Results

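The NF-kappaB system was followed through 10 genes: the subunit genes Nfkb1, Nfkb2, Rel, Rela and Relb, the inhibitor gene Nfkbia, the ubiquitin-editing genes Tnfaip3 (A20) and Cyld, and the inhibitor of apoptosis (IAP) genes Birc2 and Birc3. They were chosen as single gene symbols in the platform annotation. Of the 10, 8 were measured, out of 12393 genes in the table, and Nfkb1 and Cyld were not analysed here. The 8 genes had 13 probe sets, a probe set being the group of short probes that reads 1 transcript. The probe set with the highest mean over the 6 arrays stood for a gene.

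The RNA was that of helper T cells of the mouse that carry CD4 and lack CD25 (CD4+CD25-). They were activated with plate-bound antibodies to CD3 and CD28, infected with a retrovirus, and collected after 5 days, in medium with 10% FBS at 7% CO2. Each array reads the RNA of 1 sample, and there were 3 groups of 2 biological replicates. The wild-type mock group (WT-mock) held WT B6 cells with the empty vector, and its label names no Cre. The deficient mock group (KO-mock) held miR-17-92f/f cells with CD4-cre+ on the B6 background and the empty vector, and the deficient miR-17 group (KO-miR-17) held cells of that genotype with a vector that overexpresses miR-17. CD4-cre removes the floxed cluster in the T cell lineage. Neither deletion nor the level of miR-17 in the harvested cells was checked here. The labels do not say whether replicates came from separate animals, so p-values measure the spread between these samples.

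NF-kappaB factors are dimers of Rel family proteins that wait in the cytoplasm bound to inhibitors such as IkappaB-alpha, the product of Nfkbia. Signals from the T cell receptor, CD28 and TNF family receptors activate IkappaB kinases, the inhibitor is degraded, and dimers such as those of RelA and c-Rel enter the nucleus. A slower branch processes p100, the product of Nfkb2, and releases RelB. Nfkbia, Tnfaip3 and Birc3 are themselves textbook NF-kappaB target genes. A20 and CYLD take signalling ubiquitin chains apart, whereas the IAP proteins cIAP1 (Birc2) and cIAP2 (Birc3) are ubiquitin ligases that build chains at TNF receptors and hold the slower branch in check.

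A microRNA finds its targets mainly through its seed, bases 2 to 8. The deletion targets the chromosome 14 copies of 6 microRNAs, and the vector returns the first. Their mature sequences, from RefSeq (GRCm38.p6, chromosome 14, plus strand), are shown with the seed in capitals.
miR-17-5p: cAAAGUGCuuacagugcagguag
miR-20a-5p: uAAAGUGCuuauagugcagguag
miR-18a-5p: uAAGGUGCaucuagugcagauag
miR-19a-3p: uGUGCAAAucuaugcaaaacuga
miR-19b-3p: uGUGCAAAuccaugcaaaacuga
miR-92a-3p: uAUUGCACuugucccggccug
The 6 microRNAs carry 4 different seeds. Copies of the 6 sequences at other loci, which the deletion would leave, were not looked for here. The seed of miR-17 is shared by miR-20a, whereas miR-19a and miR-19b, for which Tnfaip3 and Rnf11 are published targets, share another. Of the 7 mature mouse microRNAs in the table with the miR-17 seed, 5 lie outside the cluster, on chromosomes 5 and X, and were not targeted by the deletion. The miR-17 sequence lies at chr14:115043684-115043706.

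On the log2 intensity scale the median probe set of an array, controls included, read 5.71 to 5.76, and the lower quartile of probe sets 3.99 to 4.17. Of 11 CD4 T cell genes 10 were measured, and all 10 lay above the array's median gene on each array, with a mean level of 10.66 to 10.68 in wild-type mock, 10.43 to 10.53 in deficient mock and 10.36 to 10.44 in deficient miR-17 cells. The mean level of macrophage and monocyte markers (9 of 9 measured, 4 of them under the lower quartile on every array) was 4.62 to 4.71, 4.50 and 4.43 to 4.47 in the same order. For B cell markers (6 of 7 measured) it was 5.46 to 5.54, 5.06 to 5.47 and 5.09 to 5.35, for dendritic cell markers (6 of 7) 5.56 to 5.61, 5.24 to 5.73 and 5.37 to 5.75, for NK cell markers (5 of 6) 4.75 to 5.62, 4.40 to 4.68 and 4.21 to 4.45, and for the CD8 genes (2 of 2) 5.12 to 5.38, 5.25 and 5.02 to 5.32. Poly-A control probe sets (24), which read RNA spiked in before labelling, averaged 7.93 and 7.63 for wild-type mock, 7.40 and 7.02 on the deficient mock arrays and 7.46 and 7.02 on the deficient miR-17 arrays, so they were lower in all 4 deficient arrays and lower in replicate 2 of each group. Between the mock groups 3 of these markers were called, Thy1 (-0.73), Ighm (-1.02) and Fcgr3 (-1.27), all lower in deficient cells, where 6.54% of all genes were called. In deficient miR-17 against wild-type mock the same 3 and Gzma (-3.61) were called lower, where 6.8% of all genes were called. Gzma read 9.58 and 6.53 in wild-type mock. H2-Aa was higher in replicate 1 of deficient mock (6.70 against 4.55) and of deficient miR-17 (6.28 against 4.44). The part of these markers and controls in the differences below was not tested.

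The mock groups, which carry the same empty vector, are compared first to see what differs without the cluster. Tnfaip3, Birc2 and Birc3, a brake on NF-kappaB and a pair of ubiquitin ligases, were lower in deficient cells, to between 0.61 and 0.705 of the wild-type intensity. Of the 8 genes 0 were called higher, where 3.74% of all genes were. The subunit genes Rela, Rel and Nfkb2 and the inhibitor gene Nfkbia differed by at most 0.15 log2 units, and Relb lay between the 2 sets. Of the 8 genes 3 were called at limma's adjusted p under 0.05, all lower, where 6.54% of the 12393 genes were called in either direction and 2.79% were called lower. All 8 differences were below 0, where 45% of all genes lay above 0. Their median was -0.26 against -0.03 over all genes. In bulk RNA, fewer cells that express a gene and less of its RNA per cell cannot be told apart.

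Tnfaip3 encodes A20, which cuts and rebuilds ubiquitin chains on signalling proteins and so ends NF-kappaB activation. It read 5.41 and 5.16 in wild-type mock, 4.56 and 4.59 in deficient mock and 4.89 and 4.65 in deficient miR-17 cells. The wild-type arrays were the highest, with a gap of 0.57 to the deficient mock arrays, and the deficient miR-17 arrays lay in between. The difference of deficient mock from wild-type mock was -0.71 ± 0.15 (log2 ± SE, n = 2 arrays per group; 95% interval -1.07 to -0.35; limma adjusted p = 0.0368). With the replicate number as a block it was -0.71 ± 0.12 (limma adjusted p = 0.00512), in a fit that called more genes in all. The Tnfaip3 readings are under the probe set medians and above the lower quartiles, a range where background adds to intensity and narrows differences. The call held with either deficient miR-17 array left out and ended with any one of the 4 arrays compared left out, where the difference ranged from -0.84 (without wild-type mock replicate 2, adjusted p = 0.0643) to -0.59 (without wild-type mock replicate 1, adjusted p = 0.195).

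Birc2 encodes cIAP1. Its intensity was 8.51 and 8.32 in wild-type mock, 7.98 and 7.85 in deficient mock and 8.06 and 7.93 in deficient miR-17 cells, so the 4 deficient arrays lay together and 0.26 or more below both wild-type arrays. It differed by -0.50 ± 0.12 between the mock groups (95% interval -0.78 to -0.23; limma adjusted p = 0.0478). This call lay at the threshold and ended with each of the 6 arrays left out in turn (-0.60 to -0.41), and in 10 of the 12 alternatives in all. With the replicate block the Birc2 difference was -0.50 ± 0.07 (limma adjusted p = 0.00325). Birc3, which encodes cIAP2, read 9.46 and 9.16 in wild-type mock, 8.75 and 8.77 in deficient mock and 8.88 and 8.66 in deficient miR-17 cells. Here too the wild-type arrays stood above the 4 others. The difference between the mock groups was -0.55 ± 0.13 (95% interval -0.85 to -0.26; limma adjusted p = 0.0465), and -0.55 ± 0.09 with the replicate block (limma adjusted p = 0.00483). A dimmer Birc3 probe set read -0.51 ± 0.19 in this comparison and did not pass (limma adjusted p = 0.192 over all probe sets with 1 symbol). The Birc3 call of the main fit ended without wild-type mock replicate 1 (-0.40), deficient mock replicate 1 (-0.54) or replicate 2 (-0.56), and deficient miR-17 replicate 1 (-0.55). It also ended with the mean of probe sets (-0.53, limma adjusted p = 0.107), with the arrays scaled again (-0.61, limma adjusted p = 0.0547) and with no intensity trend. Birc2 and Birc3 are neighbours on chromosome 9, with 0 annotated genes between them.

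**Figure D1:**
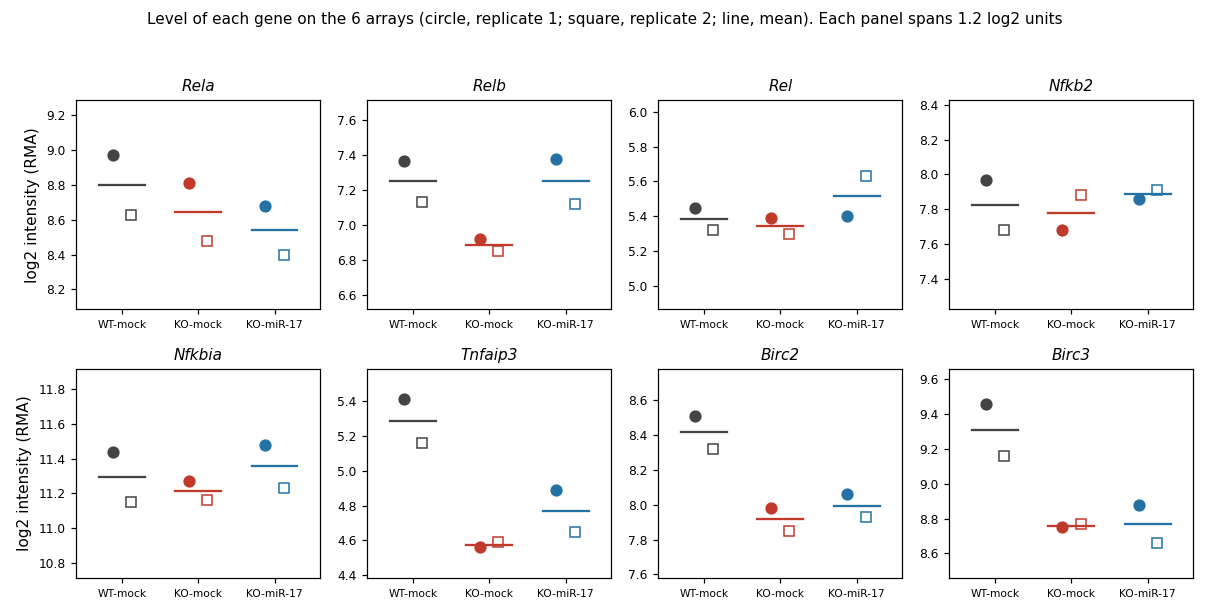
Log2 intensity of the 8 measured genes (vertical axis, 1.2 log2 units in each panel) on the 2 arrays of each of the 3 groups (horizontal axis), with circles for replicate 1, squares for replicate 2 and a line at the group mean. For Tnfaip3, Birc2 and Birc3 both wild-type mock arrays lie above the other 4, and for Relb both deficient mock arrays lie below the other 4.

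Relb encodes the subunit of the slower branch. Its readings were 7.37 and 7.13 in wild-type mock, 6.92 and 6.85 in deficient mock and 7.38 and 7.12 in deficient miR-17 cells. The deficient mock arrays were the lowest, and the readings of the other groups nearly coincided. The difference between the mock groups, -0.37 ± 0.14 (95% interval -0.70 to -0.03), did not pass (limma adjusted p = 0.190). With the replicate number as a block it was -0.37 ± 0.09 and passed (limma adjusted p = 0.0249), and the block raised the calls over all genes from 810 to 2723.

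Rela, the gene of the main activating subunit, read 8.97 and 8.63 in wild-type mock, 8.81 and 8.48 in deficient mock and 8.68 and 8.40 in deficient miR-17 cells. Replicate 1 was the higher array in each group and the groups overlapped. Rela differed by -0.15 ± 0.17 between the mock groups (95% interval -0.54 to 0.24; limma adjusted p = 0.687). Rel, which encodes c-Rel, the subunit lymphocytes rely on for Il2 transcription, read 5.45 and 5.32, then 5.39 and 5.30, then 5.40 and 5.63 in the same order of groups. Nfkb2, the gene of p100, read 7.97 and 7.68, then 7.68 and 7.88, then 7.86 and 7.91. Neither Rel (-0.04 ± 0.15, 95% interval -0.39 to 0.30) nor Nfkb2 (-0.04 ± 0.14, 95% interval -0.36 to 0.27) separated the mock groups, and a second Nfkb2 probe set, of a kind that can match related transcripts, read -0.17.

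Nfkbia read 11.44 and 11.15 in wild-type mock, 11.27 and 11.16 in deficient mock and 11.48 and 11.23 in deficient miR-17 cells. All groups overlapped. The mock groups differed by -0.09 ± 0.12 (95% interval -0.37 to 0.20; limma adjusted p = 0.758). Its 3 dimmer probe sets read -0.04, -0.04 and 0.03, so none of the 4 sets for this inhibitor gene moved with the genotype by more than 0.09.

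Over the 8 genes, the mock groups did not overlap for 4 (Relb, Tnfaip3, Birc2 and Birc3, all lower), a share of the kind seen over all genes, where 49.9% did not overlap (25.1% higher and 24.8% lower). An unadjusted p under 0.05 was reached by the same 4 of 8 and by 21.6% of all genes. Across the 6 arrays Tnfaip3 correlated with Birc2 at 0.97 and with Birc3 at 0.97, with Relb at 0.73, with Rela at 0.60 and with Nfkbia at 0.42. These correlations describe 6 arrays that share a 3-group structure and carry no test. Among 4030 genes with an SD of at least 0.2, those closest to Tnfaip3 by Pearson correlation over the 6 arrays were Tmc4 (0.991), Stat5a, a transducer of IL-2 signals (0.986), and Bbs9, part of a ciliary complex (0.983). The genes closest to Birc3 were Itpk1, an inositol phosphate kinase (0.995), Spsb1, a ubiquitin ligase adaptor (0.993), and Bbs9 (0.993). Stat5a read 8.82 and 8.67 in wild-type mock, 8.12 and 8.17 in deficient mock and 8.36 and 8.29 in deficient miR-17 cells.

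The promoters of the 3 genes that fell and of Nfkbia, which did not pass, are printed to set the readings beside the DNA that NF-kappaB could meet at their start. Each window (RefSeq, GRCm38.p6) runs from 250 bases before to 50 bases after the annotated start, written 5′ to 3′ along the gene, and the most upstream start was taken. Capitals mark matches to the kappaB consensus of 10 letters, which is GG, 2 purines, any 2 bases, 2 pyrimidines and CC and reads the same on both strands.
Tnfaip3, chr10:19015361-19015660, minus strand: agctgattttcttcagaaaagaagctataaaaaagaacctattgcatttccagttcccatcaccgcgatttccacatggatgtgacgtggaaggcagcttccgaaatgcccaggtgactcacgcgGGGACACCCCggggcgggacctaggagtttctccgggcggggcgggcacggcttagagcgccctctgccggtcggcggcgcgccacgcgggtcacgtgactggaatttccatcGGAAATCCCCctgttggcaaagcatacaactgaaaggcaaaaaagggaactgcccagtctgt
Nfkbia, chr12:55492598-55492897, minus strand: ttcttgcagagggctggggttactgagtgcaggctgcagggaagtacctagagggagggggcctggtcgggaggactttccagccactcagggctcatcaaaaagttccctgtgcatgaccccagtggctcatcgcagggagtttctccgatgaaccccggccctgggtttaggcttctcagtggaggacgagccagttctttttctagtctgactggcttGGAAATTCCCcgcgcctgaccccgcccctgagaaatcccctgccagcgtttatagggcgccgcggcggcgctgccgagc
Birc2, chr9:7837008-7837307, minus strand: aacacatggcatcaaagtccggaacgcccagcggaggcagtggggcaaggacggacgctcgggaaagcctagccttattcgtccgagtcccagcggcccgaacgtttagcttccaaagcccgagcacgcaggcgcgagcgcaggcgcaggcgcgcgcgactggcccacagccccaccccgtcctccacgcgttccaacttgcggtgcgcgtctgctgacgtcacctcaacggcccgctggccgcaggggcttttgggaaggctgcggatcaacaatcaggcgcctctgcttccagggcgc
Birc3, chr9:7873121-7873420, minus strand: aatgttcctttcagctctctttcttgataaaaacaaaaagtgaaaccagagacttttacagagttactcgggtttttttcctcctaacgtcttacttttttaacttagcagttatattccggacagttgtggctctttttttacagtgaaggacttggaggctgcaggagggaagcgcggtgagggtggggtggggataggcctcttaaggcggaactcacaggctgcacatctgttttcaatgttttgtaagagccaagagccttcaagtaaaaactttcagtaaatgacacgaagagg
Tnfaip3 holds 2 matches, with first bases at positions -125 and -12 from the annotated start, and Nfkbia 1, at position -29. The windows of Birc2 and Birc3 hold 0. Among the other genes with a window, Nfkb2 holds 3 matches, Rel 2 and Cyld 1, with overlaps of GGGAATTCCC and GGAATTCCCC in Nfkb2 and of GGGAAATCCC and GGAAATCCCC in Rel, while Rela holds 0. At least 1 match was found in 10.9% of the 27025 first windows and at least 2 in 1.51%. Tnfaip3, with 2 matches, and Birc2 and Birc3, with 0, fell, while Nfkbia, Nfkb2 and Rel, which hold matches, did not pass. Tnfaip3 and Birc2 have 2 annotated windows and Nfkb2 has 3, of which only the most upstream was searched. Whether the matches bear on the readings was not tested. These are matches of letters, not measured binding.

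The genes around these members were followed in 9 lists with 97 genes, of which 84 were measured. Between the mock groups 11 of the 84 passed, 4 higher and 7 lower (13.1%, against 6.54% of all genes). A fit of only the 6197 brighter genes called 16.2% of them, and the 84 were not matched to all genes for brightness. With the replicate block 35 passed (16 higher and 19 lower), where 22.0% of all genes did. With the block 4 of 7 ligand genes passed, 5 of 11 receptor genes, 1 of 3 in the antigen receptor arm, 1 of 8 TRAF and RIP genes, 2 of 10 kinase genes, 2 of 5 IkappaB genes, 6 of 12 ubiquitin editors, 2 of 8 IAP-related genes and 17 of 30 targets. The counts that follow are without it. Among the TNF family ligands 0 of 7 passed, and Tnf, the cytokine gene with the smallest p of the list, read 5.91 and 6.57 in wild-type mock and 6.95 and 7.58 in deficient mock cells (1.02 ± 0.30, limma adjusted p = 0.0920, and adjusted p = 0.000535 with the block). Of the 11 receptors and costimulators 1 passed. It was Tnfrsf9, which encodes the costimulator 4-1BB, at 9.75 and 9.98 in wild-type mock against 9.12 and 8.99 in deficient mock cells (-0.81 ± 0.17, limma adjusted p = 0.0363). Of 3 measured genes of the arm from the antigen receptor to the kinases 0 passed, and Prkcq, which encodes the kinase PKC-theta, differed by -0.55 ± 0.20 (limma adjusted p = 0.157, and adjusted p = 0.00217 with the block). Among 8 TRAF adaptor and RIP kinase genes 0 passed, with Fadd at 0.29 ± 0.14 (limma adjusted p = 0.296, and adjusted p = 0.0421 with the block). Of 10 kinase genes 1 passed: Ikbke, an IkappaB kinase relative, fell from 9.0 and 9.36 to 8.62 and 8.39 (-0.68 ± 0.16, limma adjusted p = 0.0480).

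Among the other IkappaB proteins, which bind Rel dimers in the cytoplasm or the nucleus, 2 of 5 passed and they moved in opposite directions. Nfkbiz, the gene of the nuclear protein IkappaB-zeta, rose from 7.15 and 7.39 in wild-type mock to 8.57 and 8.67 in deficient mock cells (1.35 ± 0.12, limma adjusted p = 0.00344), and its dimmer probe set read 1.04. Bcl3, which encodes a nuclear partner of p50 and p52 dimers, fell from 8.68 and 8.35 to 7.75 and 7.53 (-0.87 ± 0.18, limma adjusted p = 0.0345). The groups did not overlap for either gene. The other 3 did not pass.

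Of 12 measured ubiquitin editors besides A20 and CYLD, 2 passed. Rnf11, a partner of A20 in its ubiquitin-editing complex, rose from 6.71 and 6.95 to 7.77 and 8.32 (1.21 ± 0.22, limma adjusted p = 0.0237), so that this partner and Tnfaip3 moved in opposite directions. A second Rnf11 probe set of nearly the same brightness read 0.73. N4bp1, which encodes an inhibitor of NF-kappaB signalling, fell from 7.19 and 7.17 to 6.57 and 6.34 (-0.72 ± 0.15, limma adjusted p = 0.0363). The partners Tax1bp1 and Itch differed by -0.12 ± 0.10 and -0.08 ± 0.11 and did not pass. Among 8 other IAPs, IAP antagonists and caspase genes 0 passed. Xiap read 8.90 and 8.96 against 8.99 and 8.82 (-0.02 ± 0.13), and Diablo, the mitochondrial antagonist of IAPs, read 7.23 and 7.33 against 7.66 and 7.86 (0.48 ± 0.12, limma adjusted p = 0.0583, and adjusted p = 0.00496 with the block).

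Published NF-kappaB target genes split. Of 30 measured, 3 rose (Nfkbiz, Myc and Il2), 4 fell (Junb, Ier3, Bcl3 and Irf8) and 23 did not pass, with a median of -0.19. Myc, a driver of growth, rose by 1.12 ± 0.21 (limma adjusted p = 0.0257) from 8.41 and 8.86 to 9.52 and 9.98. Junb, an AP-1 subunit gene, fell by 0.85 on the log2 scale (SE 0.10, limma adjusted p = 0.00706), from 9.99 and 9.88 to 8.99 and 9.18. Ier3, an immediate early gene, read 7.82 and 8.37 against 4.95 and 6.52 (-2.36 ± 0.44, limma adjusted p = 0.0264). The deficient mock arrays of Ier3 stood 1.57 apart, wider than any member's replicates, and without deficient mock replicate 1 the difference was -1.58. Il2 (2.63 ± 0.54) and Irf8 (-0.51 ± 0.11) were outside the naming rule and are given because so few passed. Nfkbiz kept its call under all 12 alternatives, and Junb lost it only without wild-type mock replicate 1 (adjusted p = 0.0504). Tnfrsf9, Ikbke, Bcl3 and N4bp1 lost it whichever of the 4 arrays compared was left out. Tnfrsf9 (adjusted p = 0.0631), Ikbke (adjusted p = 0.0765) and Bcl3 (adjusted p = 0.0529) also lost it with no intensity trend. With the mean of probe sets Tnfrsf9 (-0.56, adjusted p = 0.0757), Ikbke (adjusted p = 0.0598) and Rnf11 (0.83, adjusted p = 0.0704) lost it. Rnf11 also lost it without either wild-type mock array or deficient mock replicate 2, Myc without wild-type mock replicate 1 or deficient mock replicate 2, and Ier3 without either wild-type mock array.

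**Figure D2:**
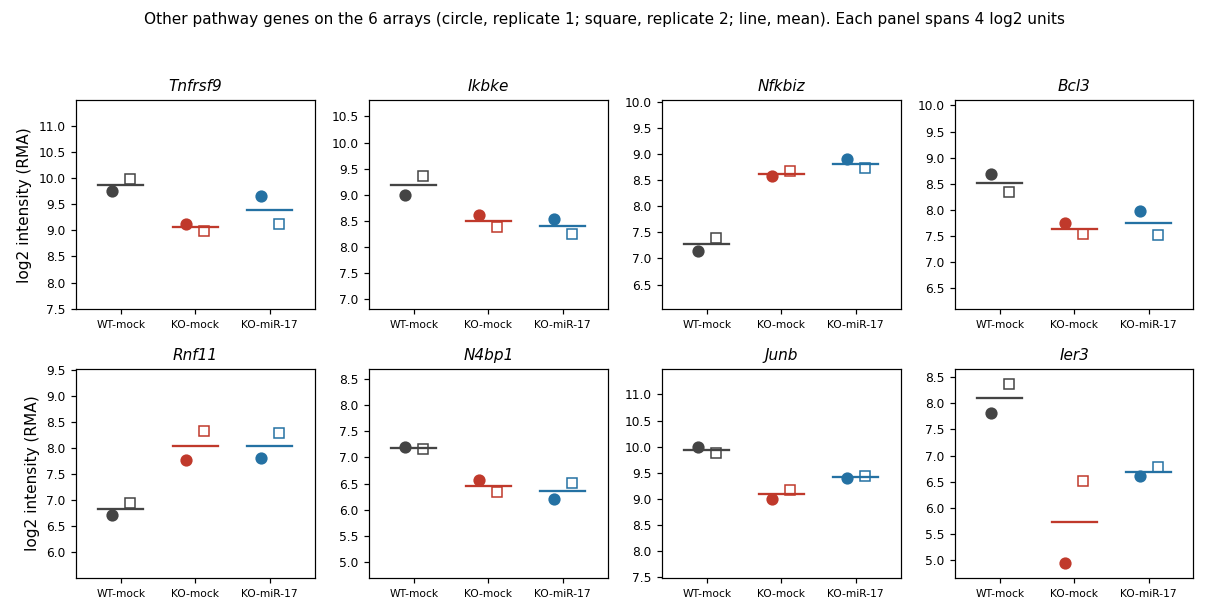
Log2 intensity (vertical axis, 4 log2 units in each panel) of 8 other pathway genes on the 2 arrays of each group (horizontal axis), with circles for replicate 1, squares for replicate 2 and a line at the group mean. Nfkbiz and Rnf11 are higher and the other 6 lower on the deficient mock than on the wild-type mock arrays. The deficient miR-17 arrays of Nfkbiz, Rnf11, Ikbke, Bcl3 and N4bp1 stay near those of the deficient mock group. Those of Tnfrsf9, Junb and Ier3 lie between the deficient mock and the wild-type mock arrays, with no call between the deficient groups.

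The effect of returning miR-17 was read within the deficient cells, as the miR-17 vector against the empty vector. None of the 8 genes was called, and 0 of the 12393 genes were (limma; 487, or 3.93%, at an unadjusted p under 0.05), so 0% is the background here. With the replicate block limma called 38 genes, 0 of them among the 8 or the 84 pathway genes. Of the 8 differences 7 lay above 0, where 51.4% of all genes did, with a median of 0.13 against 0 over all genes. These differences share the deficient mock arrays with the first comparison, so the signs in both are not independent. The arrays did not overlap for 3 genes, Rel, Relb and Tnfaip3, all higher with miR-17, where 28.9% of all genes did not overlap and 15% were higher without overlap.

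Relb had the largest difference of the 8, from 6.92 and 6.85 to 7.38 and 7.12 (0.37 ± 0.14, 95% interval 0.03 to 0.70, limma adjusted p = 1). Its unadjusted p was 0.0357, and 3.18% of all genes differed by more in either direction. Its differences in the first and second comparison, -0.37 and 0.37, share the deficient mock arrays. Tnfaip3 differed by 0.19 ± 0.15 (95% interval -0.16 to 0.55). Birc2 differed by 0.08 ± 0.12 (95% interval -0.19 to 0.35) and Birc3 by 0.01 ± 0.13 (95% interval -0.29 to 0.31). Rel (0.17 ± 0.15, 95% interval -0.17 to 0.51), Nfkbia (0.15 ± 0.12, 95% interval -0.14 to 0.43), Nfkb2 (0.11 ± 0.14, 95% interval -0.21 to 0.42) and Rela (-0.11 ± 0.17, 95% interval -0.50 to 0.28) did not pass either. Among the 9 lists, the smallest p belonged to Tnfsf14, a TNF family ligand gene, at 6.02 and 6.41 against 6.76 and 7.03 (0.68 ± 0.17, limma adjusted p = 0.857). Otud7b, which encodes a deubiquitinase of the slower branch, differed by 0.40 ± 0.13, Map3k3, a kinase gene, by -0.39 ± 0.12, and Traf4 by 0.32 ± 0.12, none of which passed. Tnfrsf9, Junb, Nfkbiz, Pdpk1 and Diablo, with the smallest p in the other lists, differed by 0.33, 0.34, 0.19, -0.08 and 0.13. Ier3, outside the naming rule here, read 4.95 and 6.52 against 6.61 and 6.78 with miR-17 (0.96 ± 0.44) and did not pass.

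**Figure D3:**
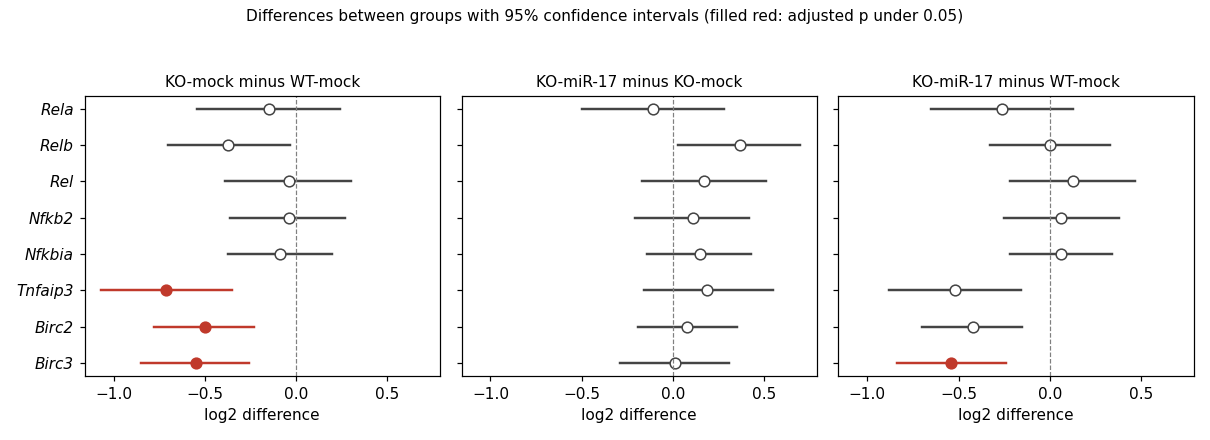
Log2 difference (horizontal axis) of the 8 genes (vertical axis) in the 3 comparisons, with the 95% confidence interval as a line. Filled red points passed at an adjusted p under 0.05. Tnfaip3, Birc2 and Birc3 lie below 0 against wild-type mock in the left and right panels, and the middle panel, the return of miR-17, holds no filled point.

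The third comparison, deficient miR-17 against wild-type mock, asked what differs from wild type in deficient cells with the miR-17 vector. It shares the wild-type mock arrays with the first. Birc3 was called lower and the other 7 genes did not pass, where 6.8% of all genes were called, 4.03% higher and 2.77% lower. Birc3 differed by -0.54 ± 0.13 (95% interval -0.84 to -0.24, limma adjusted p = 0.0483), and this call ended in 9 of the 12 alternatives. Its dimmer probe set read -0.44 ± 0.19 and did not pass (limma adjusted p = 0.249 over all probe sets with 1 symbol). Tnfaip3 differed by -0.52 ± 0.15 (95% interval -0.88 to -0.16, limma adjusted p = 0.0909) and Birc2 by -0.42 ± 0.12 (95% interval -0.70 to -0.15, limma adjusted p = 0.0767). In all 3 genes both wild-type arrays stayed above both deficient miR-17 arrays, where 50.4% of all genes did not overlap (25.9% higher and 24.4% lower). Relb differed by 0.00 ± 0.14 (95% interval -0.33 to 0.33), Rela by -0.26 ± 0.17 (limma adjusted p = 0.429), Rel by 0.13 ± 0.15, and Nfkb2 and Nfkbia by 0.06 each. The median of the 8 was -0.13 against -0.03 over all genes. With the replicate block 4 of the 8 were called, Tnfaip3 (adjusted p = 0.0168), Birc2 (adjusted p = 0.00582), Birc3 (adjusted p = 0.00487) and Rela (adjusted p = 0.0302), all lower, where the calls over all genes rose from 843 to 2983. Birc3 kept its call with 1 of the 6 arrays left out in turn, wild-type mock replicate 2 (-0.69), and differed by -0.39 without wild-type mock replicate 1 (adjusted p = 0.248).

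Of the 84 pathway genes 12 passed in this comparison, 5 higher and 7 lower (14.3%, against 6.8% of all genes). A fit of only the 6197 brighter genes called 16.8% of them. With the block 40 of the 84 passed, where 24.1% of all genes did. Nfkbiz (1.54 ± 0.12, limma adjusted p = 0.00314) and Rnf11 (1.21 ± 0.22, limma adjusted p = 0.0219) were again higher and Ikbke (-0.79 ± 0.16), N4bp1 (-0.82 ± 0.15) and Bcl3 (-0.78 ± 0.18) lower, with limma adjusted p between 0.0256 and 0.0478 for these 3. Diablo now passed, at 7.84 and 7.96 against 7.23 and 7.33 in wild-type mock cells (0.62 ± 0.12, limma adjusted p = 0.0289), the direct test against deficient mock having given 0.13 ± 0.12. Its dimmer probe set read 0.28, and with the mean of both sets it did not pass (0.45, adjusted p = 0.0693). Of the 30 target genes 3 were higher and 5 lower. Those with the smallest p were Nfkbiz, Ifng, the gene of interferon gamma (-1.41 ± 0.25, limma adjusted p = 0.0214), Myc (1.09 ± 0.21) and Junb (-0.51 ± 0.10). Of the 12 alternatives Bcl3 lost its call in 9 (leaving out an array gave -1.0 to -0.55, and each but deficient miR-17 replicate 1 ended the call), Diablo and Junb in 5 each, Rnf11, Ikbke and N4bp1 in 4 each, Ifng and Myc in 2 each and Nfkbiz in 0. Leaving out wild-type mock replicate 1 or deficient miR-17 replicate 2 ended the call of all of these but Nfkbiz. Ligands, receptors, the antigen receptor arm and the TRAF list had 0 genes that passed without the block. Their smallest p-values belonged to Lta, the lymphotoxin gene (2.20 ± 0.60, limma adjusted p = 0.0706, and adjusted p = 0.000184 with the block), Cd28 (-0.52 ± 0.15, limma adjusted p = 0.0786, and adjusted p = 0.0106 with the block), Prkcq (-0.63 ± 0.20, limma adjusted p = 0.105, and adjusted p = 0.00119 with the block) and Traf6 (0.44 ± 0.15, limma adjusted p = 0.130, and adjusted p = 0.0166 with the block). With the block 4 of 7 ligand genes, 3 of 11 receptor genes, 1 of 3 in the antigen receptor arm and 3 of 8 TRAF and RIP genes passed.

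**Figure D4:**
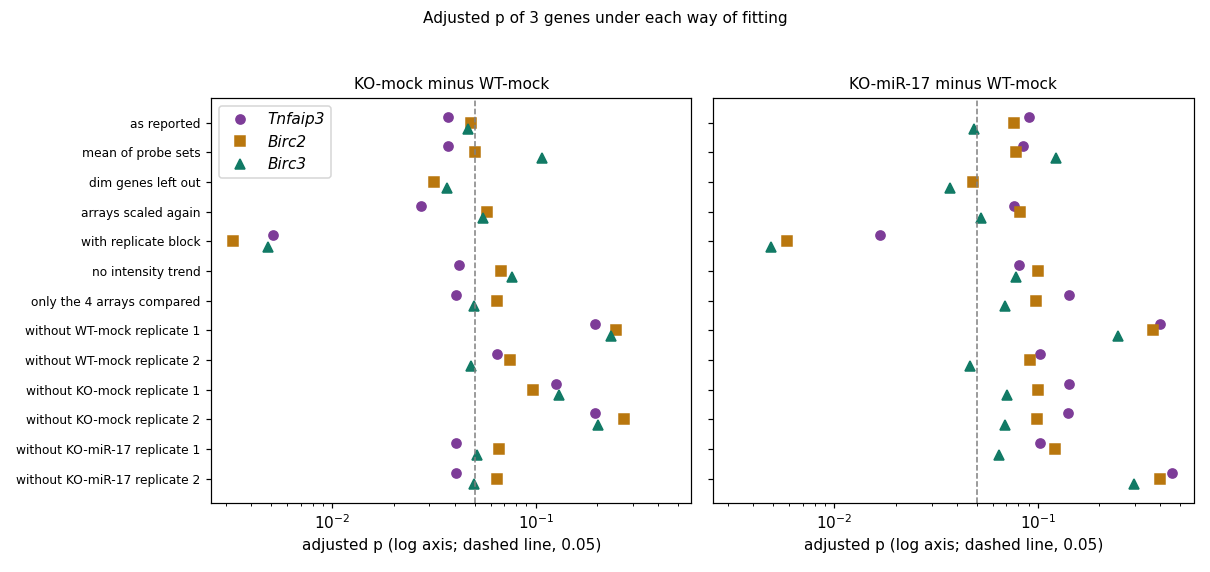
Adjusted p (horizontal log axis, dashed line at 0.05) of Tnfaip3, Birc2 and Birc3 for each way of fitting (vertical axis), for deficient mock (left) and deficient miR-17 (right) against wild-type mock. The replicate block gives the smallest values, between 0.00325 and 0.0168, and most fits that leave out an array lie to the right of the line. Tnfaip3 has no point where dim genes were left out, since it is one of them.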

How the data were processed

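The authors deposited 1 log2 intensity per probe set and array. Per the submitters' processing notes they came from RMA, with no version named. RMA removes background, equalises the arrays and combines the probes of a set, so a shift shared by most genes would be hidden. The log2 base was inferred from that method and the range of the values. Arrays carry no read depth, and 2 per group limit the precision.

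Of 22690 probe sets, 20380 had 1 gene symbol (691 had several, 1555 none here, 64 were controls). The brightest set stood for each of 12393 genes. The 6 arrays were fitted together with limma 3.58.1 in R 4.3.3 (lmFit, contrasts.fit, eBayes with trend), leaving 3 residual and 4.69 prior degrees of freedom. Adjustment was by Benjamini-Hochberg over all genes, at a threshold of 0.05. An exact permutation test of 2 against 2 cannot go below p = 0.333. The functions of the fit were also run on simulated arrays with known changes and noise drawn separately for each array. Deviations shared by same-numbered arrays were not simulated, so that run does not bear on calls near the threshold. Figures used matplotlib 3.10.9.

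The members, lists and alternatives were chosen with earlier results of these data known. All members were named. From each pathway list the text names up to 4 passing genes with the smallest p per comparison, or the gene with the smallest p where none passed. A few others are given as examples chosen after their values were seen. The alternatives were the mean of a gene's probe sets, leaving out dim genes, scaling the arrays again, a replicate block, no intensity trend, only the 4 arrays compared, and each array left out.

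The labels give the same replicate numbers to every group. Differences between replicate 1 and 2 correlated across genes at 0.429 (the mock groups), 0.506 (wild-type mock and deficient miR-17) and 0.634 (the deficient groups), so same-numbered arrays deviated together. The main fit leaves this pairing out, so its SE, intervals and adjusted p do not account for it. Only the replicate block takes the numbers to pair arrays. The pairing comes from this check, since the labels name no shared animal, litter or day.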

Additional observations from a re-analysis of the deposited data

How the results depend on the processing

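With 2 arrays per group, calls near the threshold depended on single arrays, although Tnfaip3, Birc2 and Birc3 kept their direction against wild-type mock cells under all alternatives that held them. Tnfaip3 and Rel were among the dim genes left out in one alternative. Between the mock groups that alternative called 2 of the 6 genes it held, where 16.2% of all 6197 genes in it were called. In deficient miR-17 against wild-type mock it called 16.8% of the 6197. The replicate block called Relb beside Tnfaip3, Birc2 and Birc3 between the mock groups. Of the 8 genes, 3 passed between the mock groups, against 1 with the mean of probe sets, with the arrays scaled again and with no intensity trend, and 0 to 2 with an array left out. In deficient miR-17 against wild-type mock 1 passed, against 0 with the mean of probe sets, with the arrays scaled again, with no intensity trend and with only the 4 arrays compared, 2 with dim genes left out, 4 with the replicate block and 0 to 1 with an array left out. Over all genes the replicate block gave 2723, 38 and 2983 calls in the 3 comparisons, against 810, 0 and 843, and it kept all 810 and all 843. Leaving out an array gave 95 to 693 calls between the mock groups and 74 to 697 against wild-type mock with miR-17, where no intensity trend gave 508. An array left alone in its group was assumed to vary like the other groups. The cause was not tested. Signs turned for 9 differences of the 8 genes, none of them called. Between the mock groups these were, with an array left out, Nfkb2 (-0.19 to 0.10), Rel (-0.11 to 0.02, and 0.01 with the arrays scaled again), Rela (-0.32 to 0.02) and Nfkbia (-0.23 to 0.06). For the return of miR-17 they were Birc3 (-0.10 to 0.12, and 0.00 with the arrays scaled again) and Rela (-0.27 to 0.06). Against wild-type mock with miR-17 they were Nfkb2 (-0.08 to 0.21, -0.01 with the mean of probe sets and -0.04 with the arrays scaled again), Nfkbia (-0.08 to 0.21) and Relb (-0.13 to 0.13). Apart from the calls given beside the results, the block changed no call of the 8 genes.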
